A study of Mus musculus with 5 samples.

Results

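The genes described here encode 8 protein kinases that phosphorylate splicing factors: Clk1, Clk2, Clk3, Clk4, Srpk1, Srpk2, Prpf4b and Dyrk1a. They were taken by gene symbol, and all 8 were found among the 19726 symbols listed for each library. RNA was profiled in samples labelled as CD4+ T cells from MC38 tumors, in 2 libraries (replicates 2 and 3), and from spleen, in 3 libraries (replicates 1, 2 and 3). The markers given below go against that label in the tumor libraries, so "tumor" here means the libraries labelled as such. MC38 tumors grow from a colon carcinoma line that can be transplanted into mice. All animals were wild-type C57/Bl6j mice aged 7 weeks, and the study asked how the tumor environment alters gene expression and splicing in these cells. The labels give neither a gate or marker used for sorting nor whether replicates are separate mice, so the p-values rest on a spread between libraries that may be technical. Values are TPM, a relative transcript abundance that is corrected for length and scaled to a fixed total.

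Splicing factors of the SR family carry a domain rich in serine and arginine, and phosphorylation of its serines controls where the proteins reside and when they take part in splicing. SRPK kinases act mainly in the cytoplasm, where they prime SR proteins for import into the nucleus. CLK kinases act in the nucleus, phosphorylate the domain further and release SR proteins from nuclear speckles. The kinase encoded by Prpf4b acts on the assembling spliceosome, and DYRK1A phosphorylates several splicing factors among many other substrates. CLK genes are known to be spliced in a regulated way themselves, with introns kept in a part of their RNA.

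Listed TPM added up to 596116 and 569309 in tumor replicates 2 and 3 and to between 268987 and 359532 in the spleen libraries, so a common scaling is not given by the deposited values alone. Lars2 alone held 19.5% and 9.81% of the listed TPM in tumor replicates 2 and 3, and 17.4% to 25.2% in the spleen libraries. The listed totals used below include this gene. All 14 T cell identity markers fell and all 16 macrophage and monocyte markers rose in tumor. The macrophage markers summed to 5060 to 5478 TPM in tumor and 33.4 to 39.8 TPM in spleen, and the T cell markers to 275 to 359 TPM in tumor and 1117 to 1477 TPM in spleen. No gene of either list was at 0 in every library. Cd4 averaged 27.0 ± 0.22 TPM in tumor and 115 ± 16.5 TPM in spleen, and Cd3e 13.3 ± 0.65 TPM in tumor and 86.1 ± 24.4 TPM in spleen (SD, n = 2 and 3). Lyz2 averaged 1233 ± 37.1 TPM in tumor and 2.73 ± 2.21 TPM in spleen, and Csf1r 116 ± 28.05 TPM in tumor and 0.38 ± 0.14 TPM in spleen. The summed neutrophil markers stood at 70.1 to 75.8 TPM in tumor and 18.7 to 25.5 TPM in spleen, a sum led by Csf3r (55.5 TPM in tumor and 0.88 TPM in spleen), while Cxcr2 was lower (9.19 TPM in tumor and 15.5 TPM in spleen, limma adjusted p = 0.0042). B cell markers summed to 7.02 to 8.18 TPM in tumor and 6.75 to 8.03 TPM in spleen, markers of CD8 T and NK cells to 6.27 to 6.47 TPM in tumor and 11.3 to 15.1 TPM in spleen, and epithelial markers to 2.31 to 2.39 TPM in tumor and 3.01 to 3.66 TPM in spleen. Stromal and endothelial markers summed to 64.3 to 76.1 TPM in tumor and 71.6 to 77.7 TPM in spleen. Pecam1 led this sum (59.0 TPM in tumor and 62.0 TPM in spleen), while Cdh5 was higher in tumor (2.01 against 0.47 TPM, limma adjusted p = 9.7e-05). Cd79a was lower in tumor (limma adjusted p = 0.00042) and Cd79b higher (limma adjusted p = 0.0013). Klrb1c was lower (0.53 against 5.37 TPM) and Cd8a nearly equal (3.19 against 3.20 TPM). Apart from Pecam1, these genes averaged below the olfactory receptor background given further below.

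In the deposited TPM, 4 of the 8 kinase genes rose in tumor (Clk1, Clk3, Clk4 and Dyrk1a), 1 fell (Srpk1) and 3 were not called (Clk2, Srpk2 and Prpf4b). Calls are limma's at a Benjamini-Hochberg adjusted p below 0.05 on log2(TPM + 1). Over all 12979 tested genes 59% were called, 40.9% higher and 18.1% lower in tumor, so the kinase counts lie near the background. Without tumor replicate 2, 9.38% of tested genes were called lower. The median log2 change of the kinases was 0.20, beside 0.23 over all tested genes. Among genes averaging 5 TPM or more, which include all 8 kinases, the median was 0.49. Of those genes 51.4% were called higher and 17.1% lower. Clk1 and Clk4 then lay only 0.12 and 0.066 above the median, and no kinase changed sides of it. The tumor and spleen ranges did not overlap for 7 of the 8 kinases, the exception being Clk2, and for 70.4% of all tested genes. The counts moved with the scaling, as did those of all genes. With equal listed totals 1 rose and 6 fell, beside 21% of tested genes higher and 51.3% lower. All 8 rose when scaled on T cell identity genes, beside 93.5% of tested genes. In bulk samples such as these, fewer cells of a type and less RNA per cell cannot be told apart, and the part of the macrophage RNA in the kinase values was not tested.

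**Figure D1:**
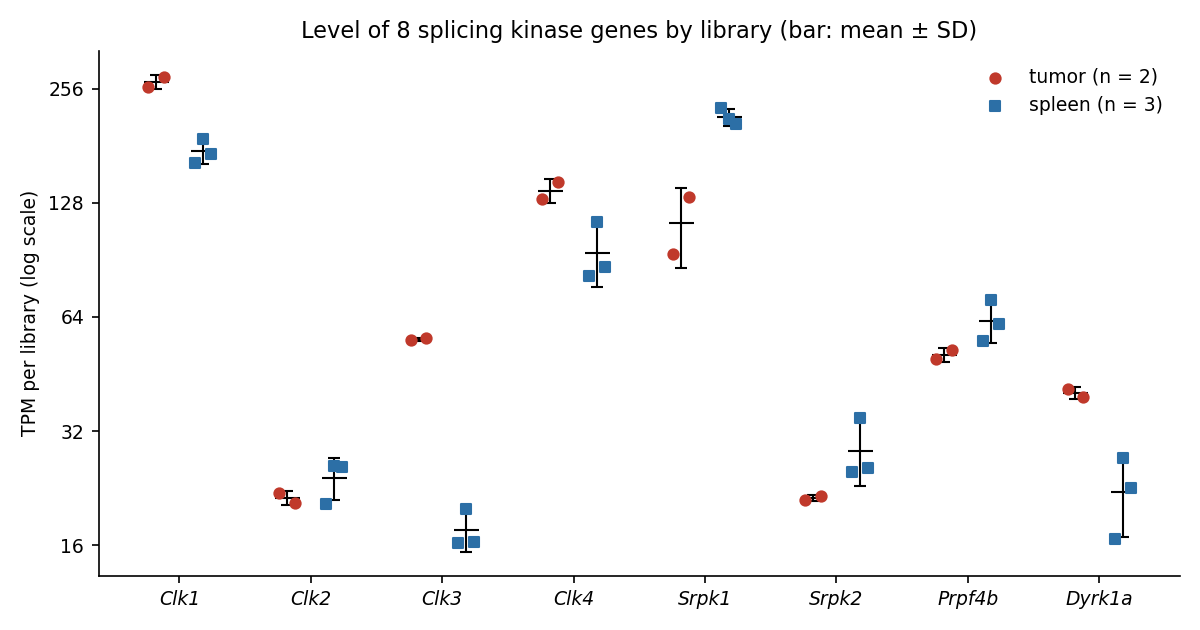
Level of each kinase gene in each library, in TPM on a log axis, for tumor (red circles, n = 2) and spleen (blue squares, n = 3), with bars for the mean ± SD. The tumor points of Clk1, Clk3, Clk4 and Dyrk1a lie above all spleen points, and those of Srpk1, Srpk2 and Prpf4b lie below them.

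Among the CLK genes, Clk3 had the largest log2 change in the deposited TPM, whereas with equal listed totals and on the upper quartile the fall of Clk2 was larger. Clk3 (chromosome 9, 57750624 to 57765860, GRCm38) stood at 55.6 and 56.1 TPM in tumor replicates 2 and 3, against 16.2, 20.0 and 16.3 TPM in spleen replicates 1, 2 and 3. The tumor values were nearly equal to each other and each was more than double the highest spleen value. The mean was 3.19 times as high in tumor. Its log2 change was 1.63 ± 0.21 (SE; limma adjusted p = 2.6e-09), and 84.4% of tested genes had a lower log2 change. Clk3 was called higher under all 5 scalings tried and without any 1 library. In every library it lay above a background given by 1092 olfactory receptor genes, whose 95th percentile lay at 7.60 to 10.5 TPM in the tumor libraries and at 10.3 to 15.5 TPM in the spleen libraries, and in spleen replicate 1 it was close to it. The gene overlaps Edc3 on the opposite strand. Read on either strand, 14.4% of the 31-base words of its annotated transcripts also occur in those of Edc3. The libraries were stranded, but whether the assignment of reads used the strand is not stated. Edc3, which encodes an enhancer of mRNA decapping, was listed at 3.74 to 3.93 TPM in tumor and 2.42 to 4.50 TPM in spleen. These values overlapped and lay below the background of each library. Whether reads of either gene were assigned to the other was not tested.

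Clk1 (chromosome 1, 58410189 to 58424066) was the most abundant of the 8 genes in tumor. It stood at 259 and 276 TPM in tumor replicates 2 and 3, against 164, 189 and 173 TPM in spleen replicates 1, 2 and 3. Both tumor values were above all spleen values, and the log2 change was 0.61 ± 0.20 (SE; limma adjusted p = 0.0086). Clk4 (chromosome 11, 51261730 to 51281766), the closest relative of Clk1, stood at 131 and 145 TPM in tumor, against 81.9, 114 and 86.6 TPM in spleen. The groups did not overlap, with spleen replicate 2 the nearest to tumor, and the log2 change was 0.56 ± 0.21 (SE; limma adjusted p = 0.0196). The calls of both genes were lost without spleen replicate 3 (adjusted p = 0.0777 for Clk1 and 0.141 for Clk4), without tumor replicate 2 (0.0835 and 0.0983), without tumor replicate 3 (0.13 and 0.201) and by median ratios (0.0644 and 0.179). Their direction reversed with equal listed totals and on the upper quartile, where both were called lower. Clk2 (chromosome 3, 89164795 to 89176921) stood at 22.0 and 20.7 TPM in tumor, against 20.6, 25.9 and 25.8 TPM in spleen. Its groups overlapped, and limma made no call at a log2 change of -0.16 ± 0.21 (SE; adjusted p = 0.518).

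The sequences before the start sites of Clk4, which rose in the deposited TPM, and Clk2, which was not called there, are shown. None of these bases lies in an exon of the gene in GENCODE M21. The same held for start sites 1 and 3 of Srpk2 and start site 3 of Dyrk1a, which are not shown. The Clk4 stretch lies inside the annotated span of the gene given above. RefSeq promoters on GRCm38.p6 were matched for 7 of the 8 genes. The capitals mark the cyclic AMP response element TGACGTCA, a palindrome. It is bound by CREB and ATF family factors.
Clk4 promoter, chr11:51262964-51263113, plus strand: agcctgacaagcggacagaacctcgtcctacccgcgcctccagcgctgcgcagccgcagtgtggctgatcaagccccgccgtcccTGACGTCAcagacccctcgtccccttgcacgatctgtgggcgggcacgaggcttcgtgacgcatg
Clk2 promoter, chr3:89164645-89164794, plus strand: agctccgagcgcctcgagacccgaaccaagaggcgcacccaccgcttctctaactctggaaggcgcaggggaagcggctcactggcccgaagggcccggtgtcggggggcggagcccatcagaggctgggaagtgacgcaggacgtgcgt
In the 250 bases before a start site, the element was found in Clk4, with its first base 65 bases before the start, and at no listed start site of the other matched kinase genes. It occurred in 1.62% of 27025 promoters searched over the same length on both strands. It overlapped no other motif searched. The ETS motif CCGGAAGT was found in Prpf4b, at no listed start site of the other matched genes, and in 2.93% of the promoters. The GC box GGGCGG was found in all 7 matched genes and in 32.9% of the promoters. The promoter shares count 1 start site per gene, while the kinase genes were searched at all 11 listed start sites. In Srpk2 the GC box was found only at start site 2. The motifs were chosen after the sequences and the expression values had been seen, and a match is a description of the letters only.

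Of the SRPK genes, Srpk1 fell and Srpk2 was not called in the deposited TPM. Srpk1 (chromosome 17, 28587648 to 28622709) stood at 94.0 and 133 TPM in tumor replicates 2 and 3, against 227, 213 and 206 TPM in spleen replicates 1, 2 and 3. Every spleen value was above both tumor values, while the tumor replicates stood further apart from each other than the spleen replicates did. The log2 change was -0.94 ± 0.21 (SE; limma adjusted p = 0.00012), and 5.81% of tested genes had a lower log2 change. Without tumor replicate 2 the change was -0.70 and no longer called (limma adjusted p = 0.0634). Srpk1 was called lower under 4 of the 5 scalings, and it was called higher, at 1.05, when scaled on T cell identity genes, a scaling that moved the median of all genes by 1.72. Relative to the median of all genes its change lay between -1.33 and -0.90 over the 5 scalings. A scaling shifts all genes nearly alike, so these are not 5 separate results. Srpk2 (chromosome 5, 23503264 to 23684617) stood at 21.0 and 21.5 TPM in tumor, against 24.95, 34.6 and 25.6 TPM in spleen. The groups did not overlap, and the log2 change of -0.39 ± 0.21 did not pass the threshold (SE; limma adjusted p = 0.111), though Srpk2 was called lower by median ratios, with equal listed totals and on the upper quartile. Srpk2 overlaps Kmt2e on the opposite strand, and 6.89% of its 31-base words, read on either strand, occur there too. Kmt2e, a chromatin regulator gene, was at 55.4 to 61.1 TPM in tumor and 45.8 to 82.5 TPM in spleen.

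Dyrk1a rose and Prpf4b was not called. Dyrk1a (chromosome 16, 94570010 to 94695517) stood at 41.4 and 39.3 TPM in tumor replicates 2 and 3, against 16.6, 27.2 and 22.7 TPM in spleen replicates 1, 2 and 3. Spleen replicate 1 was the lowest and near the background of its library, and both tumor values were above all spleen values. The log2 change was 0.86 ± 0.22 (SE; limma adjusted p = 0.00057) and the call held without any 1 library. With equal listed totals the change was -0.039 and on the upper quartile 0.072, both not called. Prpf4b (chromosome 13, 34875302 to 34906064) stood at 49.4 and 52.4 TPM in tumor, against 55.3, 71.1 and 61.4 TPM in spleen. The groups did not overlap, and the log2 change was -0.29 ± 0.21 (SE; limma adjusted p = 0.234).

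The sign of the change depended on the scaling for 7 of the kinases, and Clk3 was the exception. By median ratios 2 genes rose (Clk3 at 1.30 and Dyrk1a at 0.54) and 4 fell (Srpk1 at -1.27, Srpk2 at -0.71, Prpf4b at -0.61 and Clk2 at -0.48). Under that scaling 33.2% of tested genes were called higher and 30.2% lower. With equal listed totals Clk3 rose by 0.72, 6 genes fell and Dyrk1a was not called, where 21% of tested genes were called higher and 51.3% lower. On the upper quartile the counts were the same, with Clk3 at 0.83, beside 23.7% of tested genes higher and 49% lower. Scaled on T cell identity genes all 8 were called higher, at 1.05 for Srpk1 up to 3.56 for Clk3, and so were 93.5% of tested genes, while 1.03% were called lower. These scalings moved the median change of all genes by -0.28, -0.77, -0.68 and 1.72 on the log2 scale. Relative to the median, Clk1, Clk3, Clk4 and Dyrk1a were above it and Clk2, Srpk1, Srpk2 and Prpf4b below it in the deposited TPM. The same held under the other scalings, but each divides a whole library by a common factor and shifts all genes nearly alike. The place of a gene relative to the median was thus almost fixed in advance and is a single result. Clk3 had the highest value relative to the median, between 1.26 and 1.60.

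**Figure D2:**
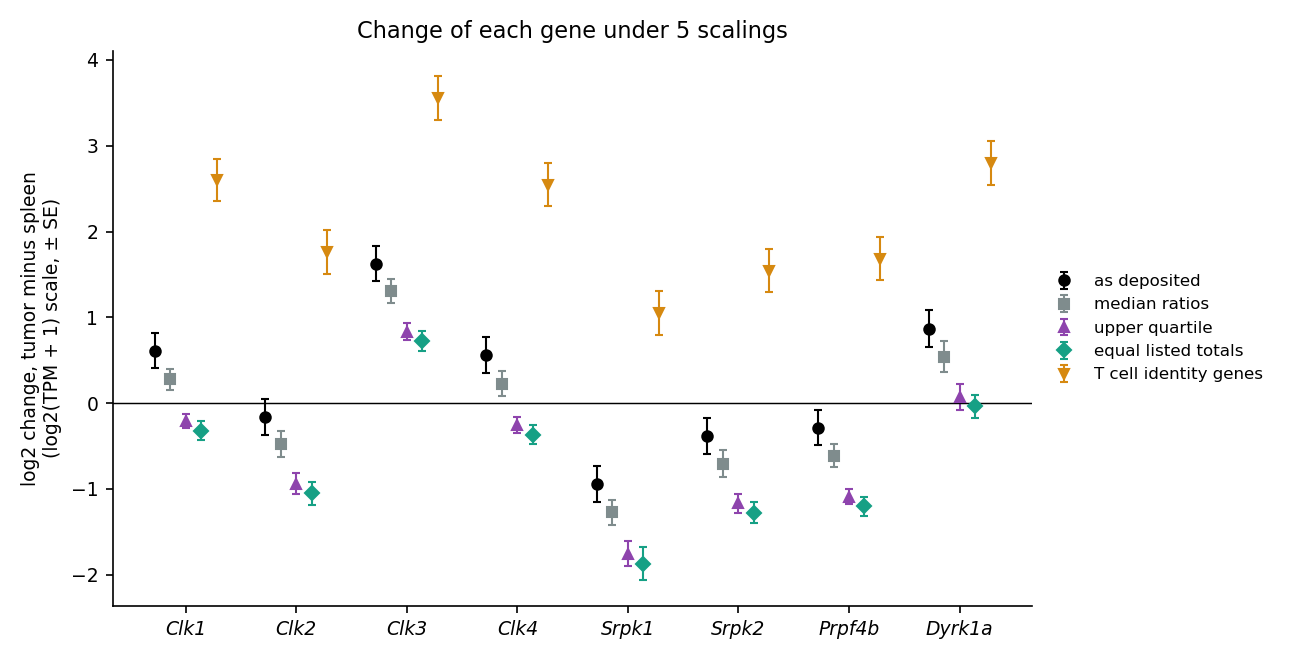
Change of each kinase gene, tumor minus spleen on the log2(TPM + 1) scale with the SE of the limma fit, for the deposited TPM and 4 other scalings. Clk3 lies above 0 under each scaling. Each scaling divides a whole library by a common factor, so all 8 genes shift together and their order stays the same.

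The share of each gene in the summed TPM of the 8 kinases does not depend on the scaling of a library. The sum was 674 and 743 TPM in tumor and 606, 695 and 617 TPM in spleen, so the ranges overlapped. Srpk1 made up 13.95% and 17.8% of the sum in tumor replicates 2 and 3, against 37.5%, 30.7% and 33.4% in spleen replicates 1, 2 and 3. Clk1 made up 38.5% and 37.1% in tumor, against 27.0%, 27.2% and 27.96% in spleen. Clk1 was thus the leading gene in both tumor libraries and Srpk1 the leading gene in all 3 spleen libraries. Clk3 averaged 7.90% ± 0.49 (SD, n = 2) in tumor and 2.73% ± 0.12 (SD, n = 3) in spleen, and Dyrk1a 5.72% ± 0.61 in tumor and 3.44% ± 0.62 in spleen. Clk4 averaged 19.5% ± 0.038 in tumor and 14.6% ± 1.54 in spleen. The shares of Prpf4b (7.20% ± 0.20 in tumor and 9.77% ± 0.58 in spleen), Srpk2 (3.01% ± 0.15 in tumor and 4.41% ± 0.49 in spleen) and Clk2 (3.03% ± 0.34 in tumor and 3.76% ± 0.39 in spleen) were lower in tumor. Shares sum to a fixed total, so the shares of the 8 genes are not independent of each other.

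**Figure D3:**
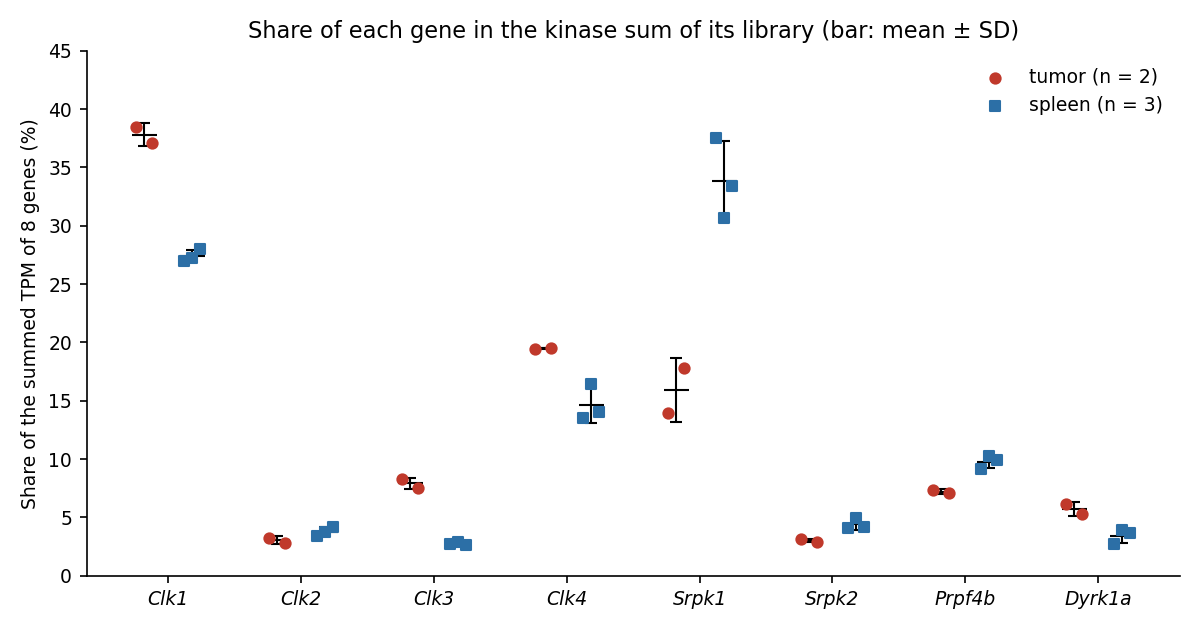
Share of each gene in the summed TPM of the 8 kinases, in percent, per tumor library (red circles, n = 2) and spleen library (blue squares, n = 3), with bars for the mean ± SD. Clk1 leads in tumor and Srpk1 in spleen.

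The order of levels within a tissue can be read because TPM is corrected for transcript length. In tumor it ran Clk1, Clk4, Srpk1, Clk3, Prpf4b, Dyrk1a, Clk2 and Srpk2, with the ranges of Clk4 and Srpk1 overlapping and those of Clk2 and Srpk2 overlapping. In spleen it ran Srpk1, Clk1, Clk4, Prpf4b, Srpk2, Clk2, Dyrk1a and Clk3, and neighbours among the last 4 genes overlapped. Srpk1 was 0.36 and 0.48 times the level of Clk1 in tumor, against 1.39, 1.13 and 1.20 times in spleen.

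Ratios between relatives were compared within each library over 3 pairs, with an exact two-sided permutation test over the 5 libraries, whose smallest possible p is 0.1. The ratio of Clk2 to Clk3 was 0.40 and 0.37 in tumor replicates 2 and 3, against 1.27, 1.30 and 1.58 in spleen replicates 1, 2 and 3. Clk2 was above Clk3 in every spleen library and below it in both tumor libraries, a log2 difference of -1.85 (exact permutation p = 0.1, adjusted p = 0.3 over the 3 pairs). The ratio of Srpk1 to Srpk2 was 4.48 and 6.16 in tumor, against 9.11, 6.16 and 8.07 in spleen, with tumor replicate 3 and spleen replicate 2 almost equal (log2 difference -0.55, exact permutation p = 0.2, adjusted p = 0.3). The ratio of Clk1 to Clk4 was 1.98 and 1.90 in tumor, against 2.00, 1.66 and 1.99 in spleen. These values overlapped, with a log2 difference of 0.048 (exact permutation p = 1, adjusted p = 1). The 2 genes share few sequences by which reads could be misassigned. Read on either strand, 0.43% of the 31-base words of Clk1 transcripts occur in Clk4, and 0.59% of those of Clk4 in Clk1. The 4 CLK genes together were at 4.07 and 3.23 times the sum of both SRPK genes in tumor, against 1.12, 1.41 and 1.30 times in spleen, with no overlap. This last ratio was chosen after the values were seen and was not tested.

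**Figure D4:**
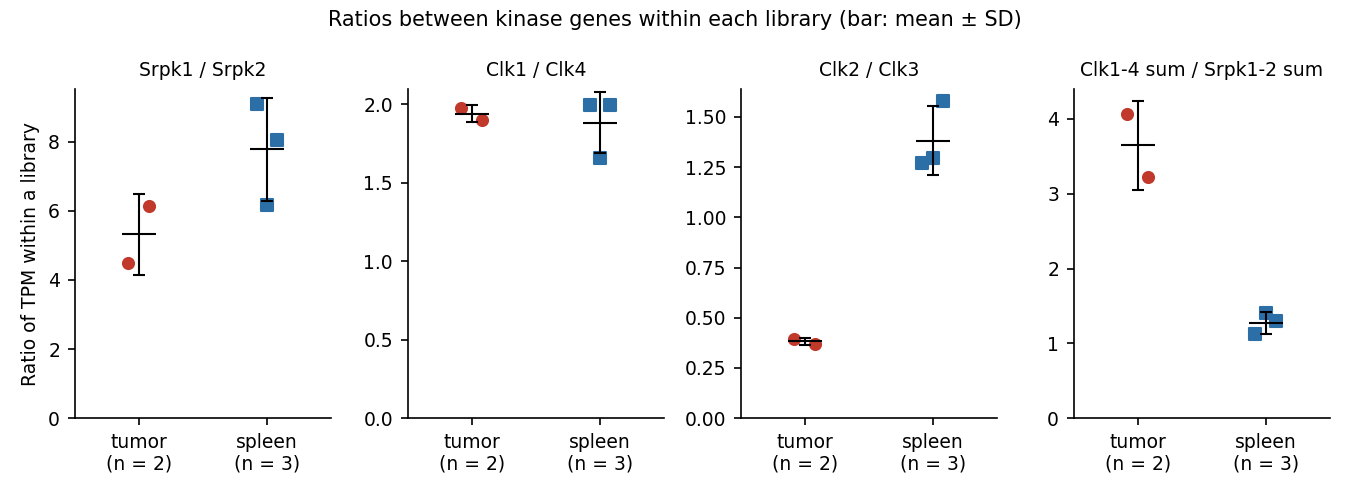
Ratios of TPM within each library for 3 pairs of related kinase genes and for the CLK sum over the SRPK sum, in tumor (red circles, n = 2) and spleen (blue squares, n = 3), with bars for the mean ± SD. The Clk1 to Clk4 ratios overlap, and the Clk2 to Clk3 ratios and the CLK to SRPK ratios do not.

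Many annotated transcripts of these genes are not protein-coding. Of 13 annotated Clk1 transcripts 1 is protein-coding and 7 keep an intron, and of 14 Clk4 transcripts 4 are protein-coding and 7 keep an intron. Clk3 has 9 annotated transcripts, of which 4 keep an intron, and Srpk1 has 13, of which 6 do. One value per gene is listed, so the levels given here do not separate coding from intron-containing RNA, and the way transcripts were combined is not stated.

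SR proteins, the main substrates of CLK and SRPK kinases, were mostly higher in tumor in the deposited TPM. Of 13 genes 9 rose and none fell, beside 40.9% of all tested genes higher and 18.1% lower, with a median log2 change of 0.88 beside 0.23 over all tested genes. Of the 12 averaging 5 TPM or more 9 rose, with a median of 0.89, beside 51.4% and 0.49 over all such genes. With equal listed totals 4 of the 13 rose and 6 fell, beside 21% and 51.3% of all tested genes. Tra2a, which encodes an activator of exon inclusion, stood at 74.6 and 89.5 TPM in tumor, against 22.3, 26.4 and 23.7 TPM in spleen (log2 change 1.72 ± 0.21, limma adjusted p = 6.1e-10). Srsf2, a general SR splicing factor, stood at 224 and 195 TPM in tumor, against 60.9, 82.0 and 71.4 TPM in spleen (log2 change 1.55 ± 0.21, limma adjusted p = 9.9e-09). Both were called higher under each of the 5 scalings. The ratio of the kinase sum to the summed SR protein genes was 0.51 and 0.55 in tumor, against 1.01, 0.84 and 0.91 in spleen, without overlap. This ratio was not tested. The SR protein genes summed to 1323 and 1361 TPM in tumor, against 600, 832 and 681 TPM in spleen, while the kinase sums overlapped.

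Of 9 genes of other splicing proteins that these kinases phosphorylate, 3 rose and none fell (median 0.37), a count near the 40.9% of all tested genes called higher, and with equal listed totals none rose and 6 fell, beside 51.3% of all tested genes lower. Ccnl2, the cyclin L2 gene, stood at 80.2 and 86.3 TPM in tumor, against 33.2, 46.4 and 41.1 TPM in spleen (log2 change 1.04 ± 0.21, limma adjusted p = 3.1e-05), and Srrm1, a coactivator of splicing, was called at 0.77 ± 0.22 (limma adjusted p = 0.0024). Neither call held with equal listed totals or on the upper quartile, and that of Srrm1 also not by median ratios or without tumor replicate 3. In this list 6 genes rose without spleen replicate 2, where 45.1% of all tested genes were called higher. Without tumor replicate 3 the list median was 0.23, beside 0.15 over all tested genes. All 9 genes averaged 5 TPM or more, and of all such genes 51.4% were called higher, with a median of 0.49. Of the 8 genes of phosphatases and SR protein import 3 rose and none fell (median 0.39), and with equal listed totals 1 rose and 5 fell. Both counts of the main direction lie near the shares of all tested genes, 40.9% higher in the deposited TPM and 51.3% lower with equal listed totals. These 8 genes too averaged 5 TPM or more, where 51.4% of all genes were called higher, with a median of 0.49. Ppp2ca, a catalytic subunit of protein phosphatase 2A, stood at 113 and 111 TPM in tumor, against 20.1, 28.1 and 22.1 TPM in spleen (log2 change 2.23 ± 0.21, limma adjusted p = 4.3e-13). It was called higher under each of the 5 scalings. Its paralog Ppp2cb was called at 0.91 ± 0.21 (limma adjusted p = 0.0002), and not with equal listed totals or on the upper quartile.

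Among 12 further kinases related to the 8, 10 passed the filter of a mean of 1 TPM, while Dyrk3 and Dyrk4 did not. Of those tested 4 rose and none fell (median 0.40), near the 40.9% of all tested genes called higher in the deposited TPM. Of the 8 averaging 5 TPM or more 4 rose (median 0.45), beside 51.4% of all such genes (median 0.49). With equal listed totals 2 of the 10 rose and 5 fell, near the 21% higher and 51.3% lower over all tested genes. Cdk9, the kinase of the elongation factor P-TEFb, stood at 53.3 and 50.5 TPM in tumor, against 10.1, 15.2 and 11.2 TPM in spleen (log2 change 2.03 ± 0.21, limma adjusted p = 1e-11). Hipk2, a nuclear kinase related to the DYRK family, stood at 18.9 and 23.1 TPM in tumor, against 5.77, 9.47 and 5.52 TPM in spleen (limma adjusted p = 6e-08). Both were called higher under each of the 5 scalings. In spleen the values of Hipk2 lay below the olfactory receptor background of each library, as did those of Cdk9 and Ppp2cb in spleen replicates 1 and 3. Srpk3, known from skeletal muscle, averaged 1.60 ± 0.93 TPM in tumor and 1.22 ± 0.54 TPM in spleen and was not called.

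**Figure D5:**
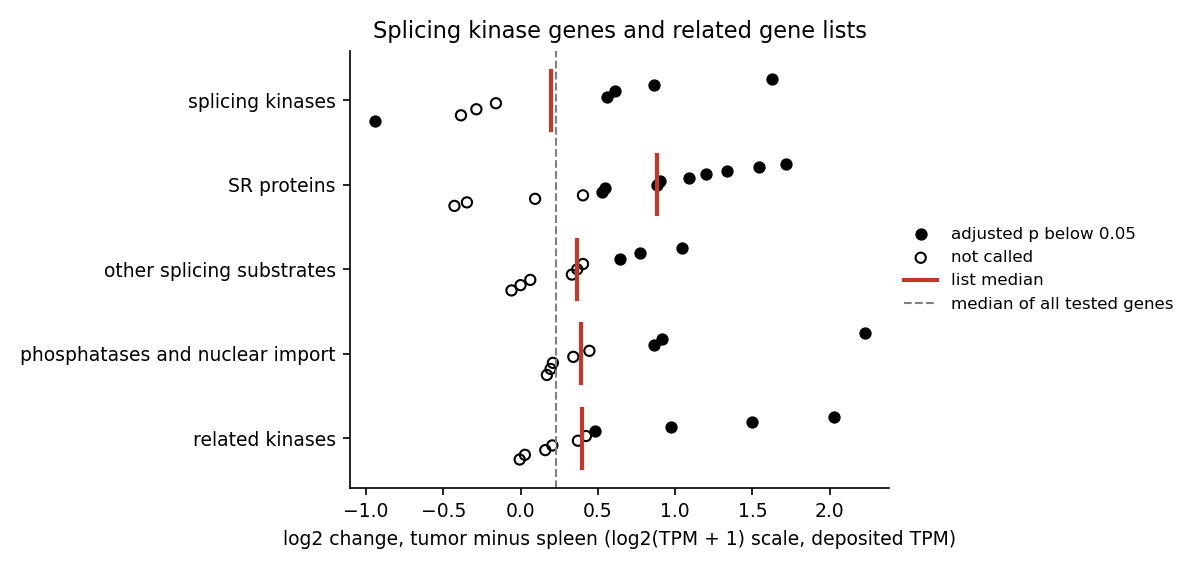
Change of each tested gene, tumor minus spleen on the log2(TPM + 1) scale of the deposited TPM, for the 8 splicing kinases and 4 related lists. Filled points passed an adjusted p of 0.05, red lines are list medians, and the dashed line is the median of all tested genes at 0.23.

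The genes whose profile over the 5 libraries was most like that of Clk3, by the root mean square difference of mean-centred log2(TPM + 1), were Txnl1 (0.0172), Agtpbp1 (0.0245) and Cenpb (0.0297), and 860 tested genes lay within 0.2. For Srpk1 they were Slc19a1 (0.0266), Nek3 (0.0486) and Rgsl1 (0.0579), with 466 genes within 0.2. Unnamed gene models, with symbols of Gm plus digits or ending in Rik, were left out of these comparisons and counts. Of the genes nearest to Clk3, Txnl1 and Cenpb averaged 8.155 and 2.93 TPM in spleen, below the background of 10.3 to 15.5 TPM there. Agtpbp1 was above it at 25.98 TPM. The 3 genes nearest to Srpk1 were at a mean of at most 1.42 TPM in tumor and at most 3.61 TPM in spleen, within the background level.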

How the data were processed

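Stranded, ribosomal RNA-depleted total RNA libraries were sequenced as paired reads, per the labels' protocols. The deposited files list 1 TPM value per gene symbol and library. Kallisto, DESeq2 and mm10 are named in the submitters' processing notes, without role or version, so the authors' steps to these TPM values are not given in full. Listed TPM made up 26.9% to 59.6% of the fixed TPM total per library. Read depth is unknown, and no counting error is stated.

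The TPM were tested as log2(TPM + 1) for the 12979 genes averaging 1 TPM or more, with limma 3.58.1 in R 4.3.3 (mean-variance trend, two-sided, Benjamini-Hochberg over all tested genes, calls below 0.05). There were 3 residual and 44.1 prior degrees of freedom. Fold changes on this scale understate changes of low genes. The fit was tested on simulated data. Alternatives were 4 scalings, 2 filters, pseudocounts of 0.1 and 10, no trend, a threshold of 0.01, a replicate block and each library left out.

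The kinases and gene lists (SR proteins, other substrates, phosphatases and import, related kinases, cell markers) were chosen with earlier results of these data known. Named genes were all 8 kinases, the 2 called genes of smallest p in each direction of each related list, Cd4, Cd3e, Lyz2 and Csf1r, and the 3 genes most like the kinases of largest rise and fall. Of 19726 symbols 19703 were in GENCODE M21 (GRCm38), from which coordinates come.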

Additional observations from a re-analysis of the deposited data

How the results depend on the processing

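Scaling moved the kinase calls most. The number of genes rising was 4 in the deposited TPM, 2 by median ratios, 1 with equal listed totals, 1 on the upper quartile and 8 on T cell identity genes. The number falling was 1, 4, 6, 6 and 0 in the same order. Of all tested genes 40.9%, 33.2%, 21%, 23.7% and 93.5% were called higher in that order. The shares called lower were 18.1%, 30.2%, 51.3%, 49% and 1.03%. Genes called over the whole table numbered 7656, and 12275 on T cell identity genes. With equal listed totals the log2 changes of Clk1, Clk4 and Dyrk1a reversed to -0.32, -0.37 and -0.039, and on the upper quartile those of Clk1 and Clk4 to -0.21 and -0.25. On T cell identity genes those of Clk2, Srpk1, Srpk2 and Prpf4b reversed to 1.76, 1.05, 1.54 and 1.68. Without spleen replicate 1, 2 or 3 in turn, 4, 4 and 2 kinases rose, and 1 fell each time. Of all tested genes 39.3%, 45.1% and 36.1% were called higher in that order, and 15.4%, 20% and 13.1% lower. With any 1 library of either tissue left out, the log2 change of Clk3 ranged from 1.58 to 1.72. That of Srpk1 ranged from -1.19 to -0.70. A lone tumor library is then assumed to vary like spleen. The log2 difference of the Clk1 to Clk4 ratio ranged from -0.040 to 0.093, that of Clk2 to Clk3 from -1.90 to -1.75 and that of Srpk1 to Srpk2 from -0.78 to -0.32. The filters, pseudocounts and trend changed no kinase call, and the threshold of 0.01 ended that of Clk4. Both tissues have replicates numbered 2 and 3, but nothing says that a number marks 1 mouse, and the differences between the 2 numbers correlated at 0.17 across genes. With the replicate block, the call of Clk4 was lost (log2 change 0.47, limma adjusted p = 0.127) and no other kinase call changed (3 rose and 1 fell). Over all tested genes 37.6% were then called higher and 15.5% lower. Depth is unknown, and 2 tumor libraries limit precision.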

Other observations

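A higher TPM in tumor did not mean a higher place among the genes of a library. Clk1 was ranked 296 in both tumor libraries, against 142, 143 and 141 in spleen replicates 1, 2 and 3, although its TPM was higher in tumor. Clk4 was ranked 668 and 648 in tumor, against 297, 265 and 312 in spleen. Clk3 was ranked 1628 and 1776 in tumor, against 2810, 2857 and 2973 in spleen, a higher place in both tumor libraries. Srpk1 was ranked 956 and 710 in tumor, against 107, 133 and 124 in spleen. The 8 kinases together made up 0.113% and 0.131% of the listed TPM in tumor, against 0.225%, 0.193% and 0.211% in spleen.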
